A study of Homo sapiens with 9 samples.

Results

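Interferon stimulated genes were followed one by one in SET2 cells with and without knockout (KO) of the kinase gene *DYRK1A*. A list of 45 such genes was matched by symbol to the gene table, and 44 of the 45, among 60662 genes in all, were measured. *OAS1* was not analysed here. SET2 is a human cell line from an acute myeloid leukemia that followed a myeloproliferative neoplasm, and it carries an activating *JAK2* mutation. Total RNA of untreated cells was sequenced in bulk in 9 libraries, 3 each of wild-type (WT) SET2 cells, KO clone 11H1 and KO clone 14B5, all of which were used. Each clone grew from a single sorted cell after delivery of Cas9 protein and guide RNA to the nuclei, and was kept because it carried only out-of-frame insertions or deletions in *DYRK1A*. The WT libraries came from the parental line, and no unedited clone was analysed here, so that loss of *DYRK1A* cannot be told apart from what each founder cell carried. The 3 libraries of a group share that origin, nothing in the labels says that they were separate cultures, and p-values therefore measure the spread between these libraries only.

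Interferons are secreted proteins that bind cell surface receptors. Type I interferons act through IFNAR1 and IFNAR2, whose kinases JAK1 and TYK2 phosphorylate STAT proteins such as STAT2. Together with IRF9 these form the complex ISGF3, which binds the interferon stimulated response element (ISRE) in target promoters, while interferon gamma acts mainly at GAS elements. The genes switched on in this way restrict viruses, sense foreign RNA and, through proteins such as USP18, dampen the signal itself. Part of the set is transcribed in resting cells at a low, constant level.

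The 9 libraries held 32347779 to 60272245 counts. *DYRK1A* mRNA stood at 197, 196 and 218 CPM (counts scaled to a fixed library total) in WT, 188, 191 and 192 in 11H1 and 191, 182 and 174 in 14B5. The log2 fold change was −0.091 in 11H1 (adjusted p = 0.131, quasi-likelihood test of edgeR) and −0.17 in 14B5 (adjusted p = 0.0278), and mRNA this close to WT does not check the label of a clone. The paper reports that the KO was checked at the protein level by western blot, which RNA counts cannot show. Of the markers of megakaryocytes and erythroid cells, the lineage named for this line, *GATA1*, *ITGA2B*, *KLF1*, *NFE2* and *TAL1* were at 223 CPM or more in every library. The late platelet markers *PF4* and *PPBP* were under 1 CPM, and *PF4* was at 0 in the KO libraries. Of the 12 markers, 10 were lower in 11H1 (83.3%, against 32.8% of all genes tested) and 8 in 14B5 (66.7%, against 28.7%). In 11H1, 1 was higher (8.33%, against 31.8%), and in 14B5, 3 were (25%, against 24.9%). The median log2 fold change of the markers was −0.58 in 11H1 and −1.25 in 14B5. A change of more than 1 log2 unit passed the test in 5 markers in 11H1 (14.3% of all genes) and 6 in 14B5 (12.5%). Their summed level was 2308 to 2382 CPM in WT, 1884 to 2008 in 11H1 and 2078 to 2111 in 14B5. The 8 monocyte and neutrophil markers summed to 196.6 to 199.7 CPM in WT, 101.8 to 109.4 in 11H1 and 111.9 to 123.7 in 14B5, nearly all of it *LYZ*, and *S100A8* was at 0. Markers of T and B cells summed to 21.8 to 24.3 CPM in WT, 18.6 to 20.3 in 11H1 and 11.4 to 13.5 in 14B5, and those of fibroblasts and epithelium to 34.0 to 37.8, 20.5 to 22.2 and 17.0 to 19.0. These sums were mostly *CD79A* and *KRT18*, and some scarce markers went the other way: *CD3D* was 0.874, 0.818 and 0.802 CPM in WT and 3.04, 2.41 and 3.62 in 11H1, *COL1A1* 0.705 ± 0.217 in WT and 1.91 ± 0.376 in 11H1 (mean ± SD, n = 3), and *ELANE* 0 to 0.0486 in WT and 0.993, 0.636 and 0.957 in 14B5. Mitochondrial genes took 3.54% to 6.03% of counts in WT, 7.23% to 7.39% in 11H1 and 3.30% to 3.92% in 14B5. These shifts ran alongside the changes below, and their part in them was not tested.

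Promoter sequence was compared first, because it shows what the members share apart from their expression. RefSeq promoter windows (GRCh38.p14, 250 bases before to 50 after a start site) were matched for 34 of the 44 genes, 46 windows in all. The ISRE core was searched on both strands as GAAA, any pair of bases, then GAAA again. It stood in 27 of the 46 windows (58.7%), against 3.57% of 35116 windows of all genes. The GAS core TTCNNNGAA stood in 9 of the 46 (19.6%), against 7.66%. The members were listed as interferon targets, so that a high share of the ISRE core follows from the choice of genes. Some windows overlap and count the same site again, as those of *PARP9* and *DTX3L* do. Counted by gene, the ISRE core stood in 23 of the 34. The stretches below are the 200 bases before the start site, 5′ to 3′ on the strand of the gene. They belong to the members that changed most in either clone at a mean of 1 CPM or more. *USP18* and *TRIM22*, among these, had no window, and scarcer members such as *OAS2* and *IFI44L* were left out. The capitals mark the ISRE core, which reads TTTC, a pair of bases, TTTC where it lies on the other strand.

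LGALS3BP (chr17:78979924-78980123, minus strand): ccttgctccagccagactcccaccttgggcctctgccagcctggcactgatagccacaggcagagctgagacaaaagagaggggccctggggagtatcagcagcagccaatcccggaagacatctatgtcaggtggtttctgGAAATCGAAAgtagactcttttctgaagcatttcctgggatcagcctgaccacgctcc
RSAD2 (chr2:6877577-6877776, plus strand): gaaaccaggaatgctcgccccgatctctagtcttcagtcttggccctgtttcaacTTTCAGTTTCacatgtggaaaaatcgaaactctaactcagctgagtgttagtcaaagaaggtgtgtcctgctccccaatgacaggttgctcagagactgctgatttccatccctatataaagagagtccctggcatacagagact
BST2 (chr19:17405631-17405830, minus strand): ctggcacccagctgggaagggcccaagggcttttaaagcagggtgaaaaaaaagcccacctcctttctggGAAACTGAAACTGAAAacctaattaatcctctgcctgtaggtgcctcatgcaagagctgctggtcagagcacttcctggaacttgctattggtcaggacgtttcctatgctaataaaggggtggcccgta
GBP1 (chr1:89065209-89065408, minus strand): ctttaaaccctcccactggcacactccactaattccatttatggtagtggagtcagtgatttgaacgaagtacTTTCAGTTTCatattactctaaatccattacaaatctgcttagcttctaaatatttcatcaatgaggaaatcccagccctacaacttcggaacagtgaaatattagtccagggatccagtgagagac
IFI27 (chr14:94110536-94110735, plus strand): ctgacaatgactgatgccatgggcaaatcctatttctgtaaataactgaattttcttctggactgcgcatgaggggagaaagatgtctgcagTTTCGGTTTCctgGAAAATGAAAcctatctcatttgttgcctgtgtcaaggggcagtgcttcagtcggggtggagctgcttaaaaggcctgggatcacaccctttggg
IFI6 (chr1:27672193-27672392, minus strand): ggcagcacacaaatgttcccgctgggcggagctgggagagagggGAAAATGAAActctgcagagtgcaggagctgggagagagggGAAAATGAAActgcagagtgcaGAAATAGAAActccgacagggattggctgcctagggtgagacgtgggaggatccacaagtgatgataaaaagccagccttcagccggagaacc

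Where a gene had several windows, that with the most matches is shown. *LGALS3BP*, *RSAD2* and *GBP1* held a single core, and *BST2* held a pair that overlapped by 4 bases. *IFI27* held a core on each strand, 3 bases apart, and *IFI6* held 3 on its own strand. A second window of *RSAD2*, at chr2:6865635-6865934 and so at the gene bound given below, held no core. Matches were found on genes that rose, genes that fell and genes that did neither. In 11H1 the core was found in 10 of 14 genes that fell, 4 of 8 that rose and 9 of 12 that did not pass the test, and in 14B5 the same counts were 11 of 14, 3 of 7 and 9 of 13. *IRF9*, *TRIM25* and *XAF1*, which rose in both clones, had no match in their windows, while *PARP9* had 1 in 1 of its 2 windows and *IFIT5* had 3. Only exact matches were counted. The same repeats with a single base between them stood in windows of *XAF1* and *TRIM25* and in the second window of *RSAD2*. A gene without a match may therefore still hold a similar element.

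Levels per length were given as TPM, a transcript's share of all transcripts scaled to a fixed total, computed from the counts and the exon lengths of GENCODE v29. In WT cells the members ranged from 0.107 TPM for *IFI44L* to 2130 TPM for *IFITM3*, with a median of 16.4. The 6 members over 100 TPM were *IFITM3* (2130 ± 66.6, mean ± SD, n = 3), *IFITM2* (741 ± 27.4), *IFITM1* (618 ± 44.7), *UBE2L6* (389 ± 16.5), *BST2* (211 ± 9.90) and *LGALS3BP* (132 ± 10.4). *IFITM1* and *IFITM2* lay close together on this scale, and *IFITM3* was well above both. Another 33 members were between 1 and 100 TPM. The 5 members under 1 TPM were *OASL*, *OAS2*, *MX2*, *MX1* and *IFI44L*, each with 3 to 33 counts in a library. Some members share exons with another gene: *TRIM22* with *OR56B1* over 642 bases and *GBP2* with *GBP7* over 621 bases on the same strand, and *XAF1* with *PRAL* over 2535 bases and *IRF1* with antisense genes over 2185 bases on the opposite strand. WT cells thus transcribed nearly the whole set without added interferon, yet held the *MX* genes and *IFI44L* close to the limit of detection, which at 3 counts was 0.0502 to 0.0913 CPM. The genes of the 21 interferons listed, type I, II and III, had 0 counts in every library.

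**Figure D1:**
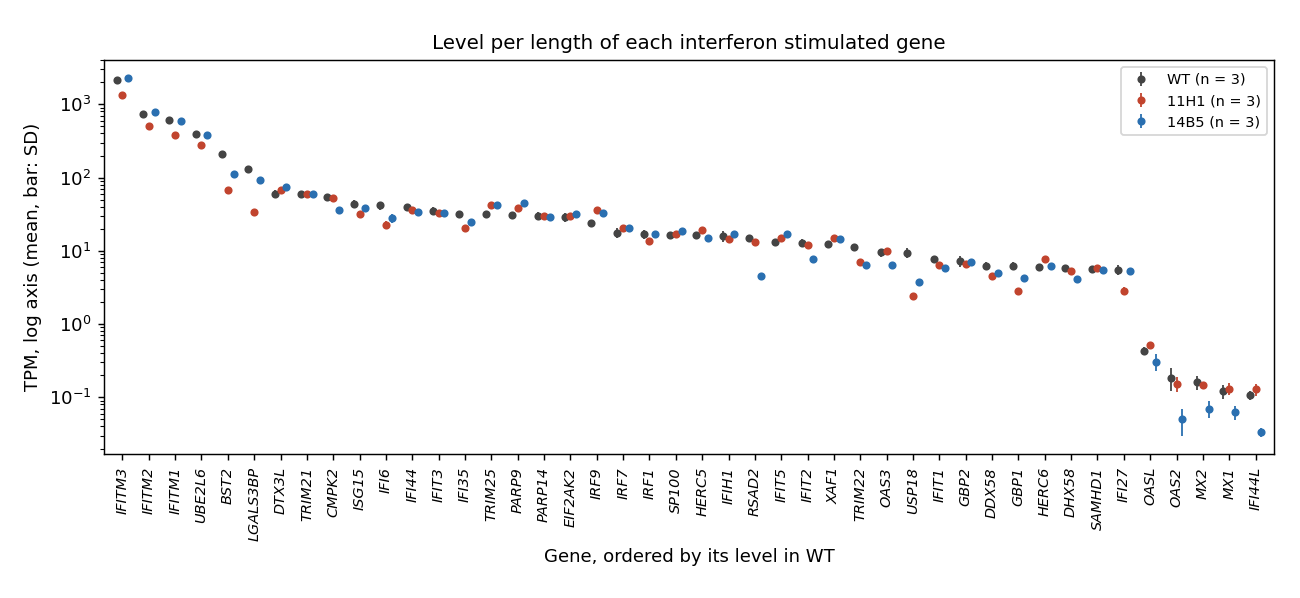
Level per length of the 44 interferon stimulated genes (TPM, log axis) in WT, 11H1 and 14B5, as the mean of 3 libraries with the SD, ordered by the level in WT. *IFITM3* is highest at 2130 TPM in WT, 5 genes lie under 1 TPM, and among the genes above 1 TPM in WT the points of the groups part most at *USP18*, *LGALS3BP*, *RSAD2*, *BST2* and *GBP1*.

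Summed over the members, the libraries held 2905 to 3039 CPM in WT, 2238 to 2302 in 11H1 and 2940 to 3007 in 14B5. The sum was lower in each library of 11H1 than in any other, and 14B5 overlapped with WT. The 3 *IFITM* genes made up 45.7% to 49.4% of the sum in WT, 38.7% to 41.0% in 11H1 and 49.6% to 49.7% in 14B5. Without them the sums were 1555 ± 20.8 CPM in WT, 1364.5 ± 6.33 in 11H1 and 1503 ± 18.7 in 14B5 (SD, n = 3). On this sum 14B5 (1482 to 1517 CPM) also lay below WT (1537 to 1578) in every library. In bulk RNA, fewer cells of a kind and less RNA per cell cannot be told apart.

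*USP18*, *BST2* and *GBP1* fell in 11H1 and in 14B5, and *IRF9*, *PARP9* and *TRIM25* rose in each. The *IFITM* genes, *IFI27* and *UBE2L6* fell in 11H1, and *RSAD2*, *OAS3* and *IFIT2* fell in 14B5 to below their level in 11H1. All 44 members passed the filter on low counts and were tested in every comparison. In 14B5, *IFI44L*, *OAS2* and *MX1* had at most 9 counts in a library. Against WT they passed the filter only through the WT libraries, so that only a fall could be called. They are counted in the shares below. Each clone was compared with the same 3 WT libraries. In 11H1, 17 members fell, where 32.8% of all 16675 genes tested fell, and 8 rose, where 31.8% of all genes rose. The members that fell were 38.6% of the 44 and those that rose 18.2%. In 14B5, 20 members fell (45.5%, against 28.7% of 16537 genes) and 7 rose (15.9%, against 24.9%). The median log2 fold change of the members was −0.11 in 11H1 and −0.14 in 14B5, beside −0.0066 and −0.014 over all genes tested. A change of more than 1 log2 unit passed the test in 4 members in 11H1 (9.09%, against 14.3% of all genes) and 5 in 14B5 (11.4%, against 12.5%), the latter share near that of all genes.

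**Figure D2:**
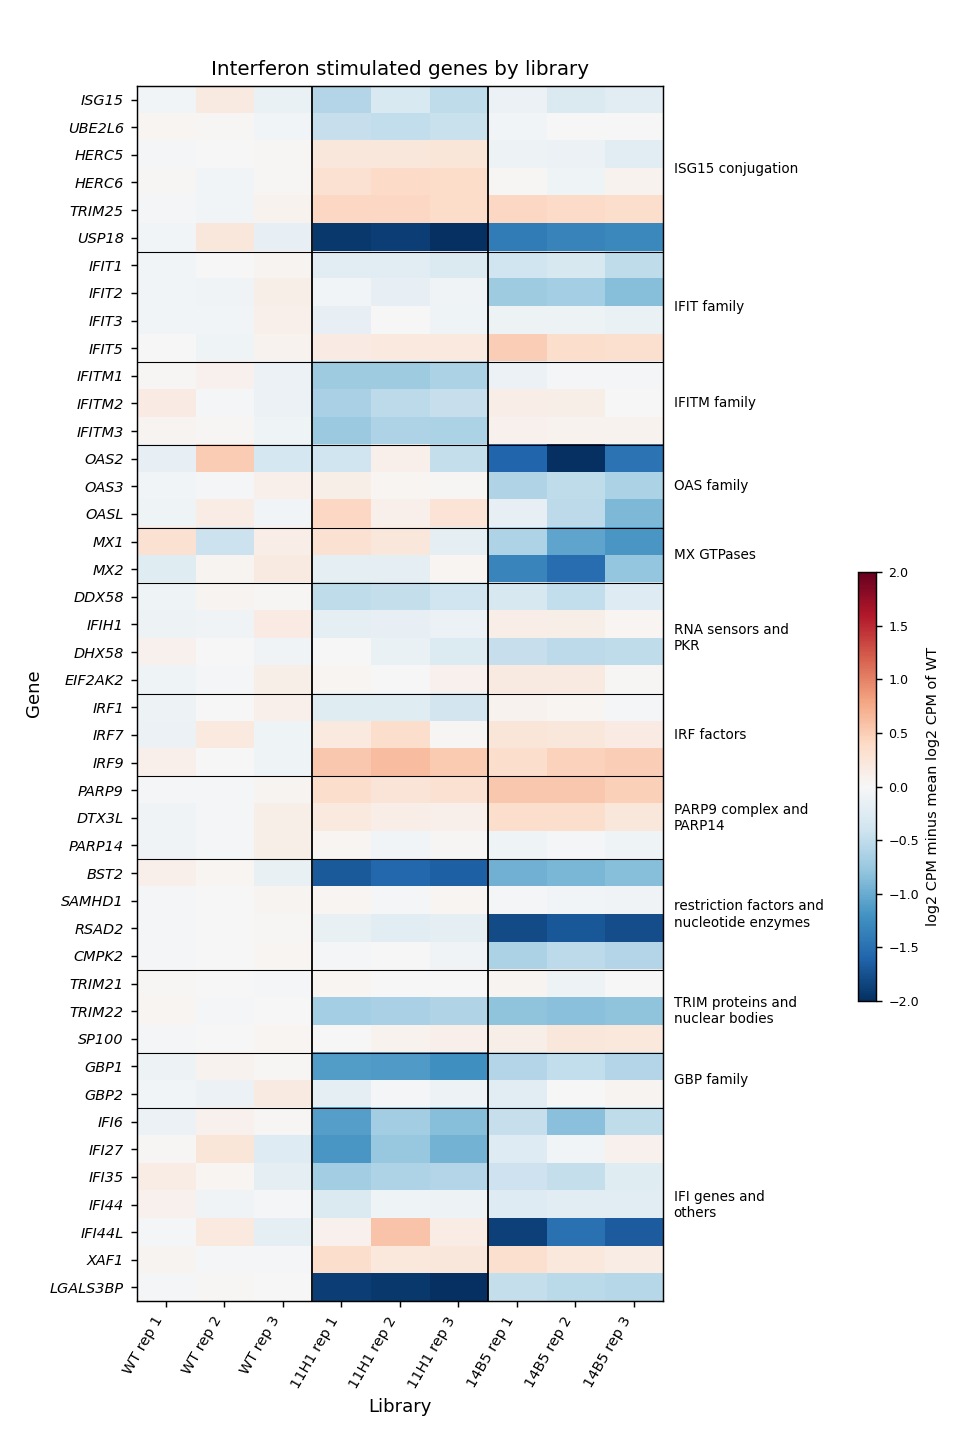
Each of the 44 genes (rows, grouped by role) in each of the 9 libraries (columns), as log2 CPM minus the mean log2 CPM of the 3 WT libraries, with the colour scale ending at 2 log2 units in either direction. *USP18* and *BST2* are blue in both clones, *LGALS3BP* and the *IFITM* genes are bluer in 11H1, *RSAD2*, *IFI44L* and the *OAS* and *MX* genes are bluer in 14B5, and *IRF9*, *TRIM25* and *PARP9* are red in both.

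With both clones taken as a single group, 8 members fell (18.2%, against 17.7% of 17080 genes) and 6 rose (13.6%, against 14.3%). This fit treats the 6 KO libraries as separate units although they come from only 2 clones, so its p-values do not measure the spread among clones. These shares were near those of all genes. *USP18*, *BST2*, *GBP1*, *IFI6*, *TRIM22*, *IFI35*, *DDX58* and *IFIT1* fell, and *IRF9*, *PARP9*, *TRIM25*, *IFIT5*, *XAF1* and *DTX3L* rose. A fit that gave each clone its own mean called 25 of the 44 members lower, where it called 30.5% of all genes lower, and 8 higher, where it called 29.4% higher. In the fit of 2 groups, omitting WT replicate 2 brought the members called higher to 3. The call of *XAF1* ended without WT replicate 2 (adjusted p = 0.068) or 3 (0.0602), and that of *IFIT1* without the same libraries (0.0682 and 0.0749). The call of *IFIT5* ended without any 1 of the WT libraries (0.0898, 0.128 and 0.0602) or without 14B5 replicate 2 (0.0522), and that of *DTX3L* without WT replicate 1 (0.156) or 2 (0.135) or without any 1 of the 14B5 libraries (0.0596, 0.0605 and 0.0518). With no filter on low counts the adjusted p was 0.068 for *IFIT5* and 0.0859 for *DTX3L*.

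The largest fall of a member in 11H1 was that of *USP18*, which encodes the protease that strips ISG15 from its targets and blocks IFNAR2 from within the cell (chromosome 22, 18149899 to 18177397 on GRCh38, with gene bounds here and below from GENCODE v29). Its level was 5.82, 7.11 and 5.39 CPM in WT, 1.60, 1.64 and 1.37 in 11H1 and 2.30, 2.41 and 2.49 in 14B5. The 3 groups did not overlap, and each KO library was below every WT library. The gene was 3.94-fold lower in 11H1 (log2 fold change −1.98, SE 0.14, adjusted p = 2.52e-07 by edgeR) and 2.57-fold lower in 14B5 (log2 fold change −1.36, SE 0.13, adjusted p = 1.09e-05). Its estimate was not a whole number in 6 of the 9 libraries, as happens where reads also match another gene.

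The rest of the ISG15 pathway moved in both directions. *ISG15* encodes the ubiquitin-like modifier itself and measured 12.1, 14.2 and 11.4 CPM in WT, 8.36, 10.1 and 8.85 in 11H1 and 11.6, 10.2 and 10.7 in 14B5. It fell in 11H1 (log2 fold change −0.47, SE 0.10, adjusted p = 0.00137 by edgeR), where the groups did not overlap, while in 14B5 the log2 fold change was −0.24 (adjusted p = 0.0562) and the libraries overlapped with WT. *UBE2L6*, the conjugating enzyme, was 265, 263 and 249 CPM in WT against 187, 184 and 190.2 in 11H1, a 1.38-fold fall (adjusted p = 3.47e-06 by edgeR). In 14B5 it was 250.0, 257 and 259 CPM, within the range of WT (log2 fold change −0.038, SE 0.047, adjusted p = 0.522).

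The ligases of the pathway did not follow the modifier. *TRIM25*, a ligase known for activating RIG-I, rose from 90.3, 88.1 and 96.2 CPM in WT to 122, 122 and 117 in 11H1 (log2 fold change 0.40, SE 0.048, adjusted p = 1.44e-05 by edgeR) and 122, 119 and 116 in 14B5 (log2 fold change 0.36, SE 0.049, adjusted p = 0.000153). *HERC5*, the main ISG15 ligase of human cells, rose in 11H1 (log2 fold change 0.24, SE 0.051, adjusted p = 0.00129 by edgeR) and fell slightly in 14B5 (log2 fold change −0.16, SE 0.055, adjusted p = 0.0339). The fall in 14B5 lost its call in 11 alternatives, among them the omission of any 1 of the 6 libraries, with adjusted p-values of 0.0597 to 0.135 without a 14B5 library and 0.0676 to 0.105 without a WT library. Its neighbour on chromosome 4, *HERC6*, rose in 11H1 (log2 fold change 0.36, SE 0.068, adjusted p = 0.000637 by edgeR) and had a log2 fold change of −0.014 in 14B5 (adjusted p = 0.892).

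**Figure D3:**
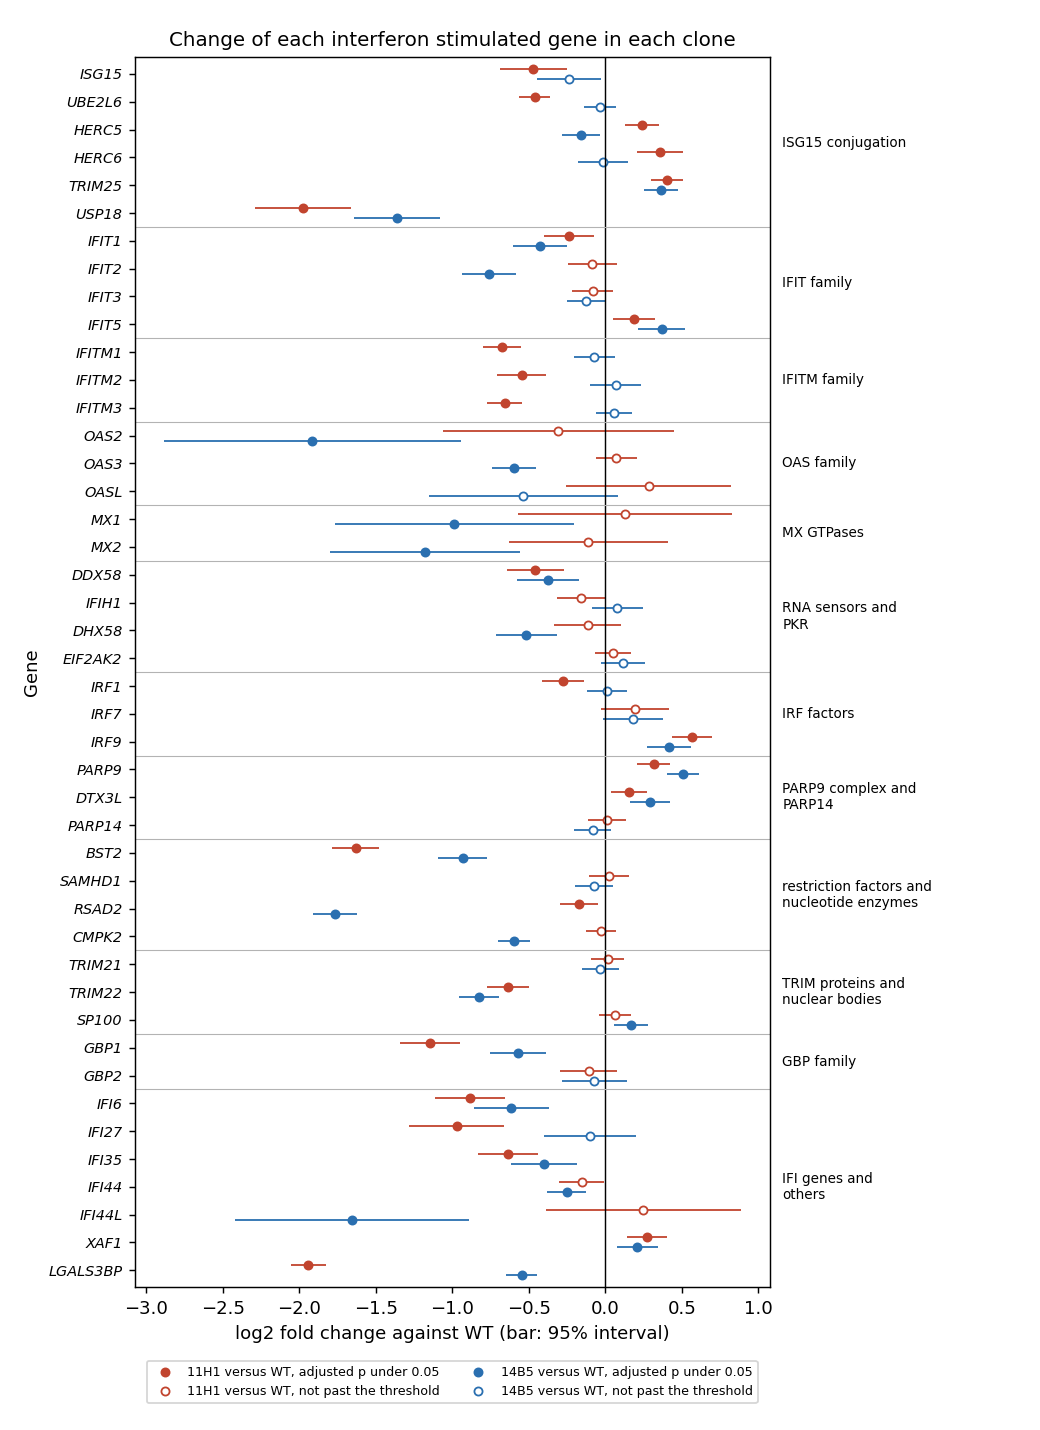
Log2 fold change of each of the 44 genes against WT with its 95% interval, in 11H1 (red) and 14B5 (blue), grouped by role; filled points passed the threshold of 0.05 on the adjusted p of edgeR. *USP18* lies at −1.98 and −1.36, *LGALS3BP* at −1.94 in 11H1, *RSAD2* at −1.77 in 14B5, and *IRF9* is the highest member in 11H1 at 0.56.

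*BST2* fell in both clones, and the 3 *IFITM* genes fell in 11H1. *BST2* encodes tetherin, which holds budding virus at the plasma membrane (chromosome 19, 17402939 to 17405648). It measured 77.0, 73.9 and 64.3 CPM in WT, 22.2, 24.1 and 23.0 in 11H1 and 36.6, 37.8 and 39.6 in 14B5, with no overlap among the groups. The fall was 3.10-fold in 11H1 (log2 fold change −1.63, SE 0.070, adjusted p = 3.45e-09 by edgeR) and 1.91-fold in 14B5 (log2 fold change −0.93, SE 0.070, adjusted p = 2.47e-06). The direct comparison of the clones also separated them, with 11H1 lower by a log2 fold change of −0.71 (adjusted p = 3.72e-07 by edgeR).

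The *IFITM* genes, whose products keep viruses from fusing with the cell, lie side by side on chromosome 11 and were counted with shared reads. All 3 had fractional estimates in all 9 libraries, and the exons of *IFITM1* and *IFITM2* overlap by 351 bases on the same strand, so the split between them is uncertain. Their summed level avoids that split and was 1422 ± 88.1 CPM in WT, 914 ± 41.2 in 11H1 and 1480 ± 18.3 in 14B5 (SD, n = 3). Taken singly, *IFITM3* was 908, 885 and 822 CPM in WT and 522, 567 and 561 in 11H1, a 1.58-fold fall (adjusted p = 6.42e-07 by edgeR). *IFITM1* fell 1.60-fold and *IFITM2* 1.46-fold in 11H1 (adjusted p = 8.53e-07 and 4.13e-05 by edgeR). In 14B5 the log2 fold changes were −0.073, 0.067 and 0.055 for *IFITM1*, *IFITM2* and *IFITM3*, none past the threshold, with 95% intervals that all lay between −0.21 and 0.23. Set directly against 14B5, 11H1 was lower in all 3, with log2 fold changes of −0.62, −0.63 and −0.73 (adjusted p = 4.33e-07, 1.38e-06 and 5.73e-08 by edgeR).

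*LGALS3BP*, which encodes a secreted galectin 3 binding glycoprotein (chromosome 17, 78971238 to 78980109), differed most between the clones among members above 100 CPM in WT. It measured 140.1, 145 and 143 CPM in WT, 38.7, 37.3 and 34.8 in 11H1 and 102, 98.4 and 95.7 in 14B5. Within a group the libraries differed by far less than the groups did. The gene was 3.84-fold lower in 11H1 (log2 fold change −1.94, SE 0.052, adjusted p = 9.28e-11 by edgeR), 1.46-fold lower in 14B5 (log2 fold change −0.55, SE 0.046, adjusted p = 5.27e-06) and 2.66-fold lower in 11H1 than in 14B5 (adjusted p = 2.27e-09). With both clones as a single group the adjusted p was 0.0517, and 9 of 17 alternatives called the gene lower, among them the omission of any 1 of the 14B5 libraries (adjusted p = 0.0337, 0.0377 and 0.0404), the DESeq2 Wald test (0.0138) and the fit with a mean for each clone (4.36e-11).

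The guanylate-binding proteins, large GTPases best known as targets of interferon gamma, did not move as a pair. *GBP1* was 8.76, 9.81 and 9.55 CPM in WT, 4.31, 4.29 and 4.01 in 11H1 and 6.25, 6.64 and 6.21 in 14B5, a fall of 2.21-fold and 1.49-fold (adjusted p = 5.11e-07 and 0.000226 by edgeR). *GBP2*, its neighbour on chromosome 1, measured 13.1, 12.7 and 15.5 CPM in WT and overlapped with WT in both clones (log2 fold change −0.11 and −0.072, 95% intervals −0.30 to 0.079 and −0.29 to 0.14).

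Small hydrophobic proteins of mitochondria and the endoplasmic reticulum are encoded by *IFI6* and *IFI27*. *IFI6* fell from 10.1, 11.6 and 11.1 CPM in WT to 5.10, 6.73 and 6.02 in 11H1 and 7.94, 6.09 and 7.69 in 14B5 (log2 fold change −0.89 and −0.61, adjusted p = 1.44e-05 and 0.000941 by edgeR), and the clones overlapped. *IFI27* was 7.04, 8.13 and 5.76 CPM in WT and 3.10, 4.08 and 3.59 in 11H1, a 1.96-fold fall (adjusted p = 8.42e-05 by edgeR). In 14B5 it was 5.78, 6.62 and 7.36 CPM, inside the spread of WT (log2 fold change −0.10, SE 0.14, adjusted p = 0.562). The clones differed directly in *IFI27*, with a log2 fold change of −0.88 (adjusted p = 7.68e-05).

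A second group of members fell in 14B5 and was near WT in 11H1. *RSAD2* encodes viperin, a radical enzyme that makes a chain-terminating nucleotide, and *CMPK2* encodes a mitochondrial nucleotide kinase. They lie head to head (chromosome 2, 6865806 to 6898239 for *RSAD2*, with 14 bases of exon shared with *CMPK2* on the opposite strand). *RSAD2* measured 21.6, 22.0 and 22.4 CPM in WT, 19.9, 18.7 and 19.5 in 11H1 and 6.34, 6.82 and 6.42 in 14B5. All libraries of 14B5 were under 7 CPM and all others above 18. The fall was 3.40-fold in 14B5 (log2 fold change −1.77, SE 0.064, adjusted p = 1.57e-08 by edgeR) and 1.13-fold in 11H1 (adjusted p = 0.0199), the latter lost without 11H1 replicate 2 (adjusted p = 0.0806). *CMPK2* was 68.5, 69.6 and 71.6 CPM in WT, 68.9, 69.4 and 66.5 in 11H1 and 45.1, 48.7 and 46.3 in 14B5, 1.51-fold lower in 14B5 (log2 fold change −0.60, SE 0.048, adjusted p = 3.92e-06 by edgeR) while the log2 fold change in 11H1 was −0.028 (95% interval −0.13 to 0.070). Between the clones, *RSAD2* and *CMPK2* were 2.98-fold and 1.47-fold higher in 11H1 (adjusted p = 5.17e-09 and 1.12e-06).

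The oligoadenylate synthetases make the messenger that activates RNase L. *OAS3* was 22.7, 23.1 and 25.4 CPM in WT, 25.9, 24.5 and 24.0 in 11H1 and 15.6, 16.7 and 15.3 in 14B5. It was 1.51-fold lower in 14B5 (log2 fold change −0.60, SE 0.065, adjusted p = 3.28e-05 by edgeR), and 11H1 overlapped with WT (log2 fold change 0.072). *OAS2* had 15, 23 and 11 counts in WT, 14, 12 and 8 in 11H1 and 5, 3 and 7 in 14B5. It passed the test in 14B5 (log2 fold change −1.91, SE 0.43, adjusted p = 0.00406 by edgeR), with a 95% interval of −2.88 to −0.95. As given above, it passed the filter there only through WT, which fixed the direction of a call. *OASL*, whose product lacks synthetase activity, had 21, 24 and 18 counts in WT and 18, 19 and 14 in 14B5 (log2 fold change −0.53, SE 0.28, adjusted p = 0.128 by edgeR).

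The dynamin-like GTPases *MX1* and *MX2*, neighbours on chromosome 21, were as scarce as *OAS2*. *MX1* had 19, 11 and 14 counts in WT, 21, 12 and 9 in 11H1 and 9, 9 and 8 in 14B5. *MX2* had 26, 31 and 29 counts in WT, 30, 18 and 21 in 11H1 and 11, 13 and 21 in 14B5. Both fell in 14B5 by edgeR (log2 fold change −0.99 and −1.18, adjusted p = 0.0367 and 0.00505) and had log2 fold changes of 0.13 and −0.11 in 11H1 (adjusted p = 0.74 and 0.7). The call of *MX1* in 14B5 ended without WT replicate 1 (adjusted p = 0.144) or 3 (0.095), without 14B5 replicate 2 (0.11) or 3 (0.106), as well as in the DESeq2 Wald test (0.142) and with no filter on low counts (0.0724). *IFI44L*, at 16, 18 and 12 counts in WT, 19, 16 and 12 in 11H1 and 4, 7 and 6 in 14B5, fell in 14B5 (log2 fold change −1.66, SE 0.34, adjusted p = 0.00235 by edgeR). For *MX1* and *IFI44L* the direction of a call in 14B5 was fixed, since they passed the filter there only through WT. The neighbour of *IFI44L*, *IFI44*, was 26.1, 23.6 and 24.4 CPM in WT and 20.7, 21.3 and 21.1 in 14B5 (log2 fold change −0.25, SE 0.057, adjusted p = 0.00394 by edgeR).

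The 4 *IFIT* genes, which form a cluster on chromosome 10, went in different directions. *IFIT2* was 15.3, 15.1 and 17.1 CPM in WT, 15.3, 14.1 and 15.1 in 11H1 and 9.68, 9.90 and 8.77 in 14B5, 1.69-fold lower in 14B5 (log2 fold change −0.76, SE 0.079, adjusted p = 2.45e-05 by edgeR). *IFIT1* fell in both clones, with log2 fold changes of −0.24 in 11H1 and −0.43 in 14B5 (adjusted p = 0.015 and 0.00127 by edgeR), the former lost without 11H1 replicate 3 (adjusted p = 0.0547). *IFIT3* had log2 fold changes of −0.083 and −0.13 (adjusted p = 0.254 and 0.0816). *IFIT5* rose, from 16.1, 15.0 and 16.7 CPM in WT to 17.7, 18.1 and 18.3 in 11H1 and 22.4, 20.2 and 19.8 in 14B5 (adjusted p = 0.0222 and 0.00131 by edgeR). In 11H1 its call ended without WT replicate 2 (adjusted p = 0.119) or without any 1 of the 11H1 libraries (0.0502, 0.0511 and 0.0611), and with no filter on low counts (0.0761).

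**Figure D4:**
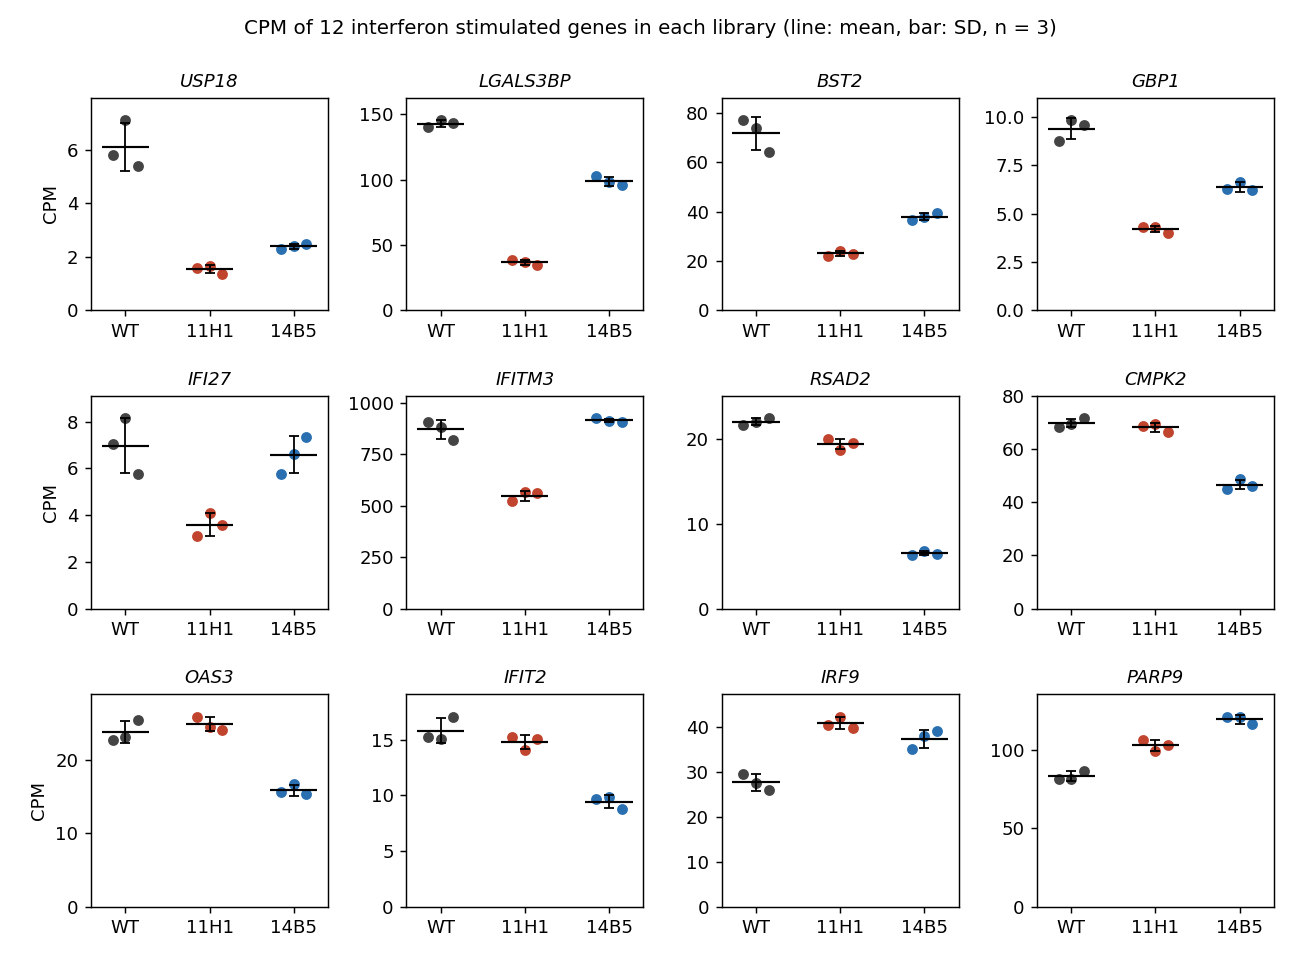
CPM of 12 of the genes in each of the 3 libraries of WT, 11H1 and 14B5, with the mean (line) and SD (bar); each panel has its own axis from 0. *USP18*, *BST2* and *GBP1* are lowest in 11H1 with 14B5 between it and WT, *IFI27* and *IFITM3* are low in 11H1 alone, *RSAD2*, *CMPK2*, *OAS3* and *IFIT2* are lowest in 14B5, and *IRF9* and *PARP9* are above WT in both clones.

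Among the cytosolic RNA sensors, *DDX58*, which encodes RIG-I, was 7.79, 8.51 and 8.41 CPM in WT, 5.78, 5.94 and 6.23 in 11H1 and 6.59, 5.84 and 6.87 in 14B5. It fell in both clones (log2 fold change −0.46, SE 0.085, adjusted p = 0.000511 by edgeR in 11H1, and log2 fold change −0.37, SE 0.091, adjusted p = 0.00603 in 14B5). *DHX58*, the gene of the regulatory sensor LGP2, fell in 14B5 (log2 fold change −0.52, SE 0.089, adjusted p = 0.00075 by edgeR), and its log2 fold change in 11H1 was −0.11 (adjusted p = 0.334). *IFIH1*, which encodes MDA5, had log2 fold changes of −0.16 and 0.078 against WT (adjusted p = 0.073 and 0.401), and 11H1 was lower than 14B5 (log2 fold change −0.25, adjusted p = 0.00113). *EIF2AK2*, the gene of the RNA-activated kinase PKR, had log2 fold changes of 0.050 and 0.11 (95% intervals −0.069 to 0.17 and −0.030 to 0.26).

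The transcription factors of the set included the member that rose most in 11H1. *IRF9*, the DNA-binding part of ISGF3 (chromosome 14, 24161053 to 24166565), was 29.6, 27.5 and 25.9 CPM in WT, 40.3, 42.2 and 39.8 in 11H1 and 35.1, 37.9 and 38.9 in 14B5. Every KO library was above every WT library. The gene was 1.48-fold higher in 11H1 (log2 fold change 0.56, SE 0.059, adjusted p = 5.48e-06 by edgeR) and 1.33-fold higher in 14B5 (log2 fold change 0.42, SE 0.064, adjusted p = 0.000371). Its exons share 1838 bases on the same strand with *AL136295.5* and its estimates were fractional in all 9 libraries, and the share of reads that belongs to either gene is uncertain. *IRF1*, which responds to interferon gamma, fell in 11H1 (log2 fold change −0.28, SE 0.062, adjusted p = 0.00205 by edgeR) and had a log2 fold change of 0.012 in 14B5 (95% interval −0.12 to 0.14). *IRF7*, which amplifies type I interferon production, had log2 fold changes of 0.20 and 0.18 (adjusted p = 0.11 and 0.104).

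*PARP9* and *DTX3L*, whose products form an ADP-ribosylating ubiquitin ligase, are transcribed head to head on chromosome 3 and rose together. *PARP9* was 81.6, 81.5 and 86.9 CPM in WT, 106, 99.6 and 103 in 11H1 and 121, 121 and 116 in 14B5 (log2 fold change 0.31, SE 0.049, adjusted p = 0.000123 by edgeR in 11H1, and log2 fold change 0.51, SE 0.047, adjusted p = 1.03e-05 in 14B5). *DTX3L* was 102, 103 and 115 CPM in WT, 122, 117 and 115 in 11H1 and 135, 136 and 126 in 14B5. Its log2 fold change was 0.29 in 14B5 (adjusted p = 0.0019 by edgeR) and 0.15 in 11H1 (adjusted p = 0.0266), where a library of 11H1 lay below the highest of WT. That call ended without WT replicate 1 (adjusted p = 0.112) or 2 (0.127) and without 11H1 replicate 1 (0.117) or 2 (0.0525). *PARP14*, next to them, had log2 fold changes of 0.011 and −0.083 (95% intervals −0.11 to 0.13 and −0.20 to 0.038).

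*TRIM22*, a ligase that restricts several viruses, was 20.9, 19.8 and 20.2 CPM in WT, 12.7, 12.9 and 13.3 in 11H1 and 11.6, 11.4 and 11.6 in 14B5, lower in each KO library than in any WT library (log2 fold change −0.64, SE 0.062, adjusted p = 2.9e-06 by edgeR in 11H1, and log2 fold change −0.83, SE 0.058, adjusted p = 1.55e-06 in 14B5). *SP100*, a component of nuclear bodies, rose slightly in 14B5 (log2 fold change 0.17, SE 0.048, adjusted p = 0.0147 by edgeR), a call lost without WT replicate 1 (adjusted p = 0.0587), and the log2 fold change in 11H1 was 0.063. *TRIM21*, a cytosolic antibody receptor, and *SAMHD1*, which degrades deoxynucleotides, lay within 0.08 log2 units of WT in both clones (0.015 and −0.034 for *TRIM21*, 0.022 and −0.072 for *SAMHD1*). *IFI35* fell from 21.2, 19.6 and 16.7 CPM in WT to 11.8, 12.4 and 12.8 in 11H1 and 14.3, 13.7 and 16.1 in 14B5 (adjusted p = 5.58e-05 and 0.00535 by edgeR). *XAF1*, the gene of an antagonist of the apoptosis inhibitor XIAP, rose from 25.9, 24.4 and 24.5 CPM to 31.7, 28.9 and 29.1 in 11H1 and 31.1, 28.9 and 27.5 in 14B5 (adjusted p = 0.00172 and 0.0154 by edgeR). In 14B5 that call ended without WT replicate 2 (adjusted p = 0.0591).

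The clones were also compared with each other, which leaves out the shared WT libraries. In 11H1, 17 members were lower than in 14B5 (38.6%, against 32.1% of 16352 genes) and 14 were higher (31.8%, against 31.6%). The share higher was near that of all genes, and the share lower was somewhat above it. The median over the members was 0.011, beside −0.0044 over all genes. The lower members were led by *LGALS3BP*, *IFI27*, the *IFITM* genes, *BST2*, *USP18*, *GBP1* and *UBE2L6*, with log2 fold changes from −1.41 to −0.44. The higher members were led by *RSAD2*, *MX2*, *OASL*, *IFIT2*, *OAS3* and *CMPK2*, from 1.58 to 0.55. *IFI44L*, *OAS2* and *MX1* are counted among the 14 as well. They passed the filter on low counts only through 11H1, so that only a higher call was open to them. *OAS3*, *OASL* and *MX2* were thus among the higher ones and all *IFITM* genes among the lower. *OAS2*, *OASL*, *MX1* and *MX2* had only 3 to 33 counts in a library. The calls of *MX1* and *OASL* ended in the DESeq2 Wald test (adjusted p = 0.0945 and 0.113). The 13 members that did not pass this test included *TRIM25* (0.025, 95% interval −0.068 to 0.12), *XAF1* (0.047, −0.084 to 0.18) and *DDX58* (−0.10, −0.30 to 0.10).

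The machinery that carries the signal was read from lists of other pathway genes. All 5 receptor genes tested fell in 11H1, where 32.8% of all genes fell, led by *IFNAR2*, a chain of the type I receptor, at 77.8, 75.2 and 76.8 CPM in WT and 44.0, 43.7 and 44.6 in 11H1 (log2 fold change −0.79, SE 0.044, adjusted p = 2.93e-08 by edgeR). In 14B5, 1 of the 5 fell (20%, against 28.7% of all genes) and 2 rose (40%, against 24.9%). It was *IFNAR2* that fell there, to 58.3, 56.2 and 57.3 CPM (log2 fold change −0.44, SE 0.044, adjusted p = 1.99e-05 by edgeR). The other chain, *IFNAR1*, had log2 fold changes of −0.23 in 11H1 (adjusted p = 0.000994 by edgeR) and 0.019 in 14B5 (adjusted p = 0.789). *IFNGR2* and *IL10RB* fell in 11H1 (log2 fold change −0.29 and −0.61) and rose in 14B5 (0.32 and 0.18, adjusted p = 0.000165 and 0.00779 by edgeR). *IFNLR1*, the specific chain of the lambda interferon receptor, was at 0.234 CPM or less in every library.

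Among the kinases and other signal transducers, *JAK2*, the gene mutated in this line, fell in both clones (log2 fold change −0.61 in 11H1 and −0.31 in 14B5, adjusted p = 7.09e-06 and 0.00288 by edgeR). *STAT2* and *TYK2* rose in 11H1 (log2 fold change 0.26 and 0.45, adjusted p = 0.000236 and 7.89e-06 by edgeR), and *JAK1* fell in 14B5 (log2 fold change −0.46, adjusted p = 9.89e-05).

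Of 8 brakes on the pathway, *SOCS3*, a feedback inhibitor of JAK kinases, was 97.1, 99.0 and 95.2 CPM in WT, 153, 163 and 146 in 11H1 and 177, 177 and 185 in 14B5, and rose in both clones (log2 fold change 0.67, SE 0.050, adjusted p = 3.21e-07 by edgeR in 11H1, and log2 fold change 0.87, SE 0.045, adjusted p = 1.66e-07 in 14B5). The phosphatase gene *PTPN6* also rose (log2 fold change 0.33 and 0.62, adjusted p = 5.04e-05 and 5.06e-06 by edgeR). *SOCS1*, another feedback inhibitor, had log2 fold changes of −0.17 and 0.0039 (adjusted p = 0.37 and 0.986). In all, 4 of the 8 rose and 0 fell in 11H1 (31.8% and 32.8% of all genes), and 2 rose and 1 fell in 14B5 (24.9% and 28.7% of all genes). *USP18*, a brake that is counted among the members, fell in both clones as given above.

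**Figure D5:**
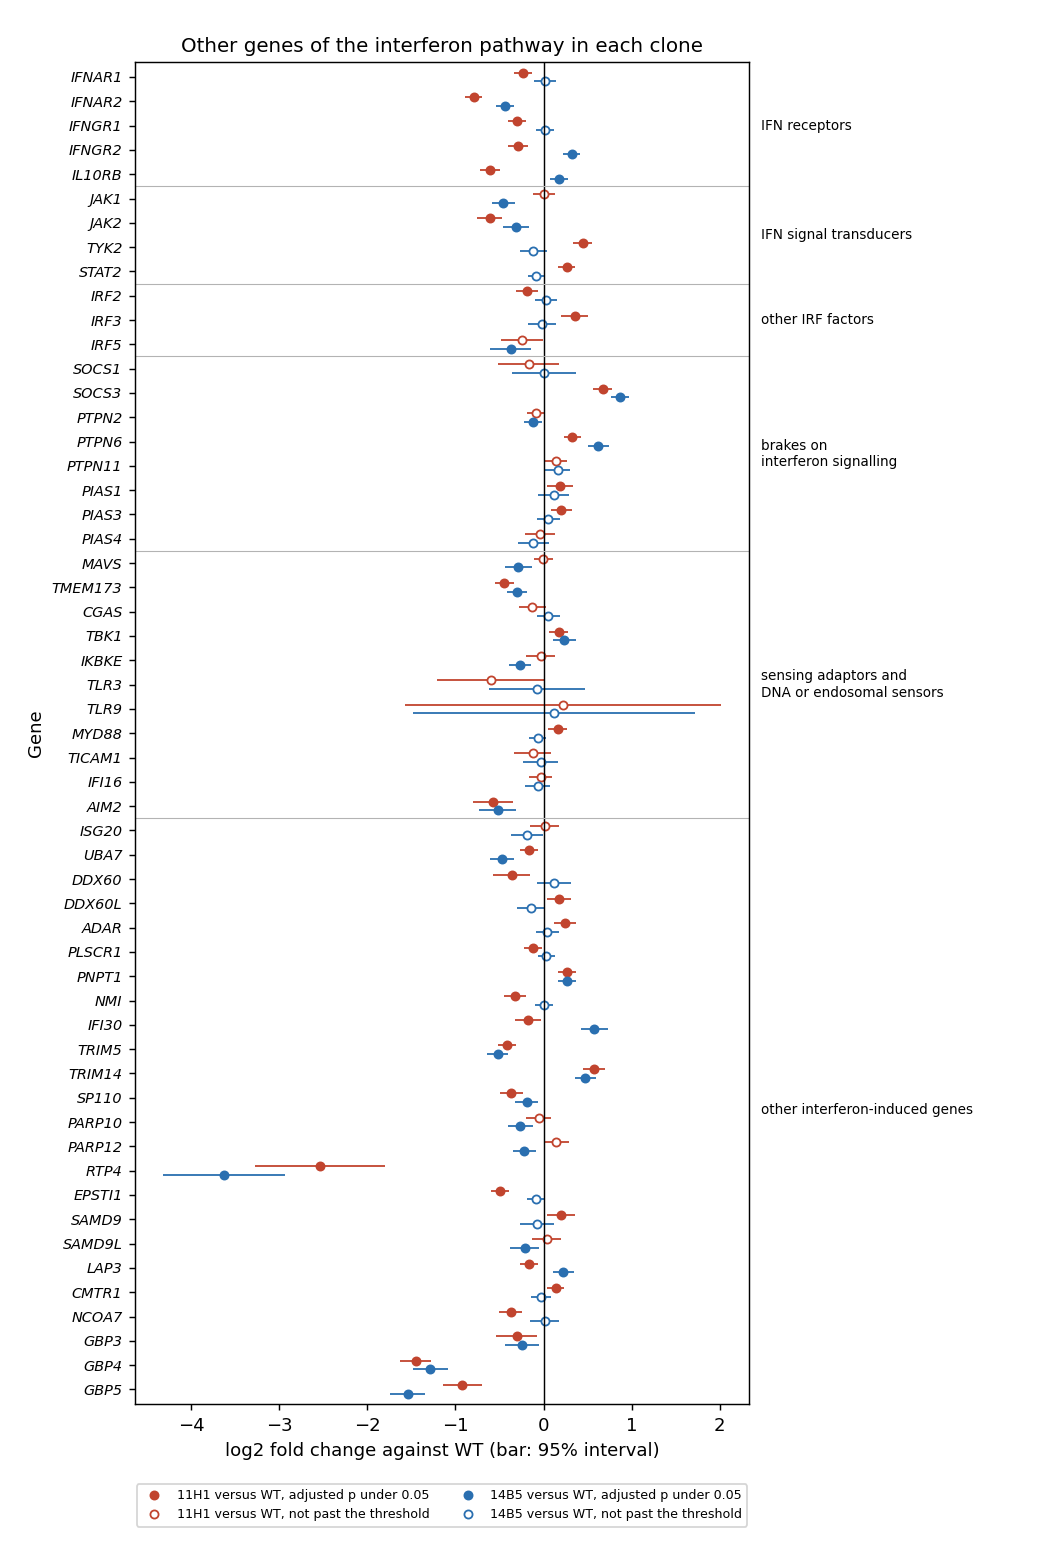
Log2 fold change against WT with its 95% interval in 11H1 (red) and 14B5 (blue) for other genes of the interferon pathway tested in both comparisons, grouped by role; filled points passed an adjusted p of 0.05 in edgeR. *IFNAR2* and *JAK2* lie left of 0 in both clones, *SOCS3* and *PTPN6* right of 0, and *RTP4*, *GBP4* and *GBP5* furthest left.

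Among 24 further interferon-induced genes that are no members of the list of 45, 14 fell (58.3%, against 32.8% of all genes) and 6 of the 24 rose (against 31.8%) in 11H1. In 14B5, 10 fell (41.7%, against 28.7%) and 4 rose (16.7%, against 24.9%). Like the members and the other lists, this list was chosen with earlier results of these data known. Its shares therefore describe these genes only and are no independent test. *GBP4* fell from 37.4, 40.0 and 46.5 CPM in WT to 14.3, 15.7 and 15.1 in 11H1 and 17.6, 18.2 and 15.6 in 14B5 (adjusted p = 2.31e-08 and 1.16e-06 by edgeR), and *GBP5* from 9.82, 9.79 and 10.5 to 5.35, 5.97 and 4.47 and 3.75, 3.41 and 3.32 (adjusted p = 8.75e-06 and 3.62e-07). *RTP4* was under 1 CPM in every library and fell in both clones (adjusted p = 3.79e-05 and 5.92e-06 by edgeR). *TRIM5*, a retroviral restriction factor, fell (log2 fold change −0.42 and −0.52), while *TRIM14* (0.57 and 0.47) and *PNPT1* (0.26 and 0.27) rose. *UBA7*, which activates ISG15 for conjugation, fell in 11H1 (log2 fold change −0.16) and in 14B5 (−0.47, adjusted p = 0.0094 and 9.32e-05 by edgeR). Of the 11 sensing genes tested, *TMEM173*, which encodes STING (log2 fold change −0.45 and −0.30), and the DNA sensor gene *AIM2* (−0.58 and −0.52) fell in both clones, and the kinase gene *TBK1* rose (0.17 and 0.24). In 11H1, 2 of the 11 fell and 2 rose (18.2% each, against 32.8% and 31.8% of all genes), and in 14B5, 4 fell (36.4%, against 28.7%) and 1 rose (9.09%, against 24.9%). Among other IRF genes, *IRF2* fell (log2 fold change −0.19, adjusted p = 0.012 by edgeR) and *IRF3* rose (0.35, adjusted p = 0.00074) in 11H1, and *IRF5* fell in 14B5 (−0.37, adjusted p = 0.0117).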

How the data were processed

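RNA of 9 libraries was measured by sequencing. The authors aligned reads with STAR 2.7.9a to GRCh38 and estimated gene counts with RSEM, per the submitters' processing notes and methods; RSEM's version and annotation release are not given in the sources used here. The labels and the methods name different library kits, so that strand use is uncertain. The deposited table holds RSEM expected counts, not normalized, in 60754 rows, of which 92 spike-in rows, all at 0, were dropped. Counts were rounded and tested in edgeR 4.0.16 (R 4.3.3): TMM scaling, filterByExpr, quasi-likelihood F tests, and Benjamini-Hochberg adjustment over all genes tested, called at 0.05. Each comparison used only its own groups. "Rose" and "fell" mean called. CPM used TMM-scaled library totals, and TPM used exon lengths of GENCODE v29 (96.6% of genes matched by identifier). Counting error alone enters the floor of 3 counts. No libraries were copies of each other (chi-square per gene 3.84 to 34.7 between replicates).

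The members and lists were chosen with earlier results of these data known. Every member is named, other genes come from pathway and marker lists, some of whose genes are not reported here, and promoters are shown for the members that changed most at 1 CPM or more. *USP18* and *TRIM22*, among these, had no promoter entry. Alternatives were limma 3.58.1 (voom), the DESeq2 1.42.0 Wald test and size factors, library totals, no filter, at least 10 counts in every library, a replicate block, a 3-group fit and the omission of each library.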

Additional observations from a re-analysis of the deposited data

Results flagged for a closer look

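For 31 of the 44 members, the change from WT differed between the clones by the direct comparison of 11H1 with 14B5 (edgeR's quasi-likelihood test, adjusted p under 0.05). These were 17 lower (38.6%, against 32.1% of all genes) and 14 higher (31.8%, against 31.6%). The share higher was near that of all genes and the share lower somewhat above it, so that clones differing in many members is not particular to this set. The values below are log2 fold changes of 11H1 against 14B5.

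The members lower in 11H1 were *LGALS3BP* (−1.41), *IFI27* (−0.88), *IFITM3* (−0.73), *BST2* (−0.71), *USP18* (−0.63), *IFITM2* (−0.63), *IFITM1* (−0.62), *GBP1* (−0.59), *UBE2L6* (−0.44), *IRF1* (−0.30), *IFIH1* (−0.25), *IFI35* (−0.25), *ISG15* (−0.25), *PARP9* (−0.21), *IFIT5* (−0.20), *DTX3L* (−0.15) and *SP100* (−0.12). *PARP9*, *DTX3L* and *IFIT5* were above WT in each clone, and further above it in 14B5.

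The members higher in 11H1 were *IFI44L* (1.89), *OAS2* (1.59), *RSAD2* (1.58), *MX1* (1.09), *MX2* (1.05), *OASL* (0.80), *IFIT2* (0.66), *OAS3* (0.65), *CMPK2* (0.55), *HERC5* (0.38), *DHX58* (0.38), *HERC6* (0.35), *TRIM22* (0.17) and *IRF9* (0.13). *IFI44L*, *OAS2*, *MX1*, *MX2* and *OASL* rest on 3 to 33 counts in a library, so the sizes of their differences are imprecise. *IFI44L*, *OAS2* and *MX1* passed the filter on low counts only through 11H1, so that only this direction was open to them.

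Of the 31 calls, 22 held in every alternative that tested them. *IFI44L* and *OAS2*, among these, were not tested with at least 10 counts in every library. The call of *DTX3L* ended without 11H1 replicate 3 (adjusted p = 0.051), and those of *IFI35* and *IFIT5* without 11H1 replicate 1 (0.0505 and 0.0504). That of *ISG15* ended without 11H1 replicate 1 (0.107), 11H1 replicate 3 (0.0611) or 14B5 replicate 1 (0.0574), and that of *MX1* without 11H1 replicate 1 (0.0802), 14B5 replicate 2 (0.0528) or 14B5 replicate 3 (0.0524). The call of *OASL* ended without 11H1 replicate 1 (0.105) or 3 (0.0581) and without 14B5 replicate 2 (0.0658) or 3 (0.101). The call of *TRIM22* ended without 11H1 replicate 2 (0.0504) or 3 (0.0808) and without 14B5 replicate 2 (0.077). The call of *SP100* ended without 11H1 replicate 1 (0.18) or 2 (0.0725) and without 14B5 replicate 2 (0.125) or 3 (0.0688). The call of *IRF9* ended without any 1 of the 11H1 libraries (0.0806, 0.149 and 0.0648) and without 14B5 replicate 1 (0.183) or 2 (0.0781). In the DESeq2 Wald test the adjusted p was 0.0596 for *IRF9*, 0.0616 for *SP100*, 0.0765 for *TRIM22*, 0.0945 for *MX1* and 0.113 for *OASL*. With no filter on low counts it was 0.112 for *IRF9* and 0.122 for *TRIM22*, and in the 3-group fit 0.0757 for *IRF9*. For *SP100* it was 0.109 with library totals and 0.0824 with at least 10 counts in every library.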

How the results depend on the processing

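Calls of single members held in every alternative that tested them for 21 of 25 in 11H1 against WT, 23 of 27 in 14B5 against WT, 10 of 14 in KO against WT and 22 of 31 between the clones. With at least 10 counts in every library, *IFI44L* and *OAS2* were not tested in the comparisons with 14B5, and their calls are counted as held. No called member changed direction. The 3-group fit raised the members called lower in KO against WT from 8 to 25, and leaving out 1 library at a time gave 3 to 6 called higher there. These members were called with both clones kept apart, since the spread between the clones no longer counted as error. The median log2 fold change of the members in 11H1, −0.110, was −0.121 to −0.037 without 1 library (the latter without WT replicate 3) and −0.133 to −0.089 in the other alternatives. It moved from −0.143 to −0.106 in 14B5 with no filter on low counts, and from −0.227 to −0.262 with limma voom and −0.257 to −0.200 without 1 library in KO. Between the clones it was 0.039 with library totals, −0.034 with at least 10 counts in every library and −0.040 to 0.026 without 1 library, against 0.011. The cause of these shifts was not tested.

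Some members near 0 changed sign, none of them past the threshold before or after. With no filter on low counts the log2 fold changes in 11H1 were −0.00085 for *SAMHD1*, −0.0082 for *TRIM21* and −0.012 for *PARP14*, and in 14B5 0.0034 for *TRIM21* and 0.023 for *HERC6*. With at least 10 counts in every library they were −0.0072 for *IRF1* in 14B5 and 0.017 for *IRF7* between the clones. The 3-group fit gave 0.0027 for *HERC6* in 14B5, and library totals gave 0.0061 for *TRIM21* in KO and 0.025 for *IRF7* between the clones. Leaving out 1 library gave, in 11H1, −0.0058 to 0.051 for *SAMHD1*, −0.029 to 0.062 for *PARP14*, −0.075 to 0.30 for *MX1* and −0.0082 to 0.027 for *TRIM21*. In 14B5 it gave −0.035 to 0.074 for *IRF1*, −0.20 to 0.027 for *IFI27*, −0.041 to 0.048 for *HERC6*, −0.13 to 0.033 for *GBP2* and −0.052 to 0.027 for *TRIM21*. In KO it gave −0.016 to 0.016 for *TRIM21*, −0.22 to 0.044 for *OASL*, −0.049 to 0.0083 for *SAMHD1*, −0.086 to 0.060 for *IFIH1*, −0.13 to 0.0052 for *GBP2* and −0.072 to 0.025 for *PARP14*. Between the clones it gave −0.0019 to 0.088 for *XAF1*, −0.012 to 0.068 for *IFIT3*, −0.088 to 0.064 for *IRF7* and −0.018 to 0.060 for *TRIM21*.

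The replicate numbers share only a number: libraries with the same number correlated at −0.234 to 0.099 in their deviations from the group means, and others at −0.202 to 0.211. With the replicate number as a block, 9 members were higher and 18 lower in 11H1, 7 and 18 in 14B5, 4 and 7 in KO, and 11 and 16 between the clones. The block ended the calls of *HERC5* (adjusted p = 0.1) and *MX1* (0.0692) in 14B5, of *DTX3L* (0.098), *IFIT1* (0.0587) and *IFIT5* (0.0787) in KO, and of *IRF9* (0.0553), *OASL* (0.0501), *SP100* (0.0687) and *TRIM22* (0.0646) between the clones. Depth limits *IFI44L*, *MX1*, *MX2*, *OAS2* and *OASL*, at 33 counts or fewer in every library.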
